A study of Homo sapiens with 6 samples.

Results

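YME1L1 and the proteases that share its work in human mitochondria were followed in U2OS cells after knockdown of LSD1, the histone demethylase encoded by KDM1A. The group has 10 members, out of 15585 genes in the deposited table. They are YME1L1, OMA1, the m-AAA protease subunits AFG3L2 and SPG7, the matrix proteases LONP1 and CLPP, CLPX, the unfoldase that works with CLPP, the proteases PARL and HTRA2, and OPA1, a substrate of YME1L1 and OMA1. YME1L1 was selected on its reads, which fell from siCTR to siLSD1 in these same libraries, so its values are given as a description and were not tested. The other 9 were chosen for their function, with earlier results of these data known. All 10 members had reads in all 6 libraries and passed the filter on low counts.

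U2OS is an osteosarcoma cell line. Cells were transfected for 48 h either with control siRNA (siCTR, 3 libraries) or with LSD1 siRNA (siLSD1, 3 libraries), and the RNA was sequenced. The study examined LSD1 in DNA replication and used these libraries to see which transcripts changed with the knockdown. The labels do not say that the replicates came from separate cultures, so p-values here measure the spread between these libraries.

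Mitochondria remove damaged or surplus proteins with their own proteases. In the inner membrane, YME1L1 forms the i-AAA protease, which faces the intermembrane space, and AFG3L2 and SPG7 form the m-AAA protease, which faces the matrix. YME1L1 and the stress-activated protease OMA1 both cleave OPA1, the dynamin-related GTPase that fuses inner membranes, and the balance of its long and short forms sets the shape of the mitochondrial network. Cells that lack YME1L1 are known to rely on OMA1 for this cleavage, which is the reason for examining the partners of YME1L1 here. Counts per gene do not separate spliced or cleaved forms of OPA1.

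Each library held between 12513511 and 13561344 counted reads, and edgeR put the biological coefficient of variation at 12.6%. By a chi-square comparison of counts, siCTR replicate 2 stood farthest from the other libraries, with 21.6 to 37.4 per degree of freedom against 6.19 to 23.2 among the others. For the target KDM1A the mean level (in CPM, read counts scaled to the size of the library, ± SD of 3 libraries) was 489 ± 16.4 in siCTR and 90.4 ± 6.92 in siLSD1. Of the markers of the labelled lineage, VIM and ALPL had 9487 to 11615 and 4162 to 5411 reads per library, whereas SPARC and RUNX2 had at most 4 reads in any library. The epithelial keratins KRT8 and KRT18 were abundant, with a summed level of all listed epithelial markers of 2960 to 3580 CPM in siCTR and 2440 to 3040 CPM in siLSD1. These keratins made up nearly all of that sum, since EPCAM had 28 to 41 reads per library and KRT19, KRT5 and KRT14 had at most 5. CDH1, an epithelial cadherin, lay the other way, with 95, 80 and 66 reads in siCTR and 154, 117 and 143 reads in siLSD1 (log2 fold change 0.77, adjusted p = 0.0699 from edgeR). PTPRC, which marks blood cells, had at most 1 read per library. Of the 3 endothelial markers in the table, PECAM1 and TEK had at most 3 reads per library, and the summed level was 5.14 to 8.01 CPM in siCTR and 11.6 to 13.0 CPM in siLSD1. VWF, which made up most of that sum, rose (log2 fold change 0.87, adjusted p = 0.0418 from edgeR), and its part in the values of the members was not tested.

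KDM1A and YME1L1 share a run of 15 bases in their coding sequences, which is shown because the siLSD1 libraries received siRNA directed at KDM1A. It was found by searching the coding sequence of KDM1A against those of 11737 tested genes on the same strand (GENCODE release 44, GRCh38). The YME1L1 run lies in exon 5 of 19 at chr10:27136301-27136315, − strand, and the KDM1A run lies in exon 14 of 21 at chr1:23072135-23072149, + strand. The shared bases are in capitals, with 8 bases of each gene on either side.
YME1L1: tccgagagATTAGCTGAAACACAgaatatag
KDM1A: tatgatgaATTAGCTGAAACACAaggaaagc
A shared run of 15 bases or more, anywhere in the coding sequence of KDM1A, was found in 285 of the 11737 genes, or 2.43%. Among the other members the longest run was 13 bases in OPA1, LONP1 and CLPP, a length reached by 18.0% of genes, and 12 bases or fewer in the remaining members. By the study's methods, the run lies within the KDM1A target of one of its LSD1 siRNAs. The share of genes with a run of this length inside that target alone was not counted. Which LSD1 siRNA these libraries received is not given in the sources used here, and the loss of LSD1 and the siRNA itself came together in every siLSD1 library. Their parts in the YME1L1 values cannot be told apart.

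YME1L1 (chr10:27110111-27155266, − strand, GRCh38) encodes the whole i-AAA protease, a ring of identical subunits. Its level was 267, 281 and 261 CPM in siCTR replicates 1, 2 and 3, and 63.4, 68.0 and 70.6 CPM in siLSD1 replicates 1, 2 and 3. The groups were far apart, and both were tight. With the SD of 3 libraries, siCTR averaged 270 ± 10.5 CPM and siLSD1 averaged 67.3 ± 3.63 CPM, so that 24.9% of the control level was left. This is a log2 fold change of −2.0, with a range of −2.04 to −1.96 when each library was left out in turn. Without siCTR replicate 2 it was −1.97. The second set of deposited counts held 3882 to 4004 YME1L1 reads per siCTR library and 939 to 1090 per siLSD1 library. KDM1A fell further, so that the ratio of YME1L1 to KDM1A in CPM was 0.534 to 0.565 in siCTR and 0.707 to 0.767 in siLSD1. In bulk RNA, fewer cells that express a gene and less RNA in each cell cannot be told apart.

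None of the other 9 members changed at an adjusted p under 0.05 in edgeR's quasi-likelihood test, against 1.44% of all 11844 genes tested. None had an unadjusted p under 0.05 either, a level passed by 14.0% of all tested genes, and DESeq2 and limma-voom also called 0 of 9, against 2.73% and 1.34% of all genes. Without siCTR replicate 2 the count was 0 as well. By sign, 4 members were higher and 5 lower in siLSD1. Their median log2 fold change was −0.16, against −0.01 over all tested genes. All 9 intervals at the 95% level held 0. The outermost bounds were −0.74 (PARL) and 0.46 (LONP1), so that a doubling or a halving lay outside the interval of every one of the 9. Summed over the 9 genes, the level was 810 to 834 CPM in siCTR and 846 to 864 CPM in siLSD1. The groups did not overlap for AFG3L2 and LONP1, 2 of 9 genes, and 21.4% of all tested genes had groups that did not overlap.

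**Figure D1:**
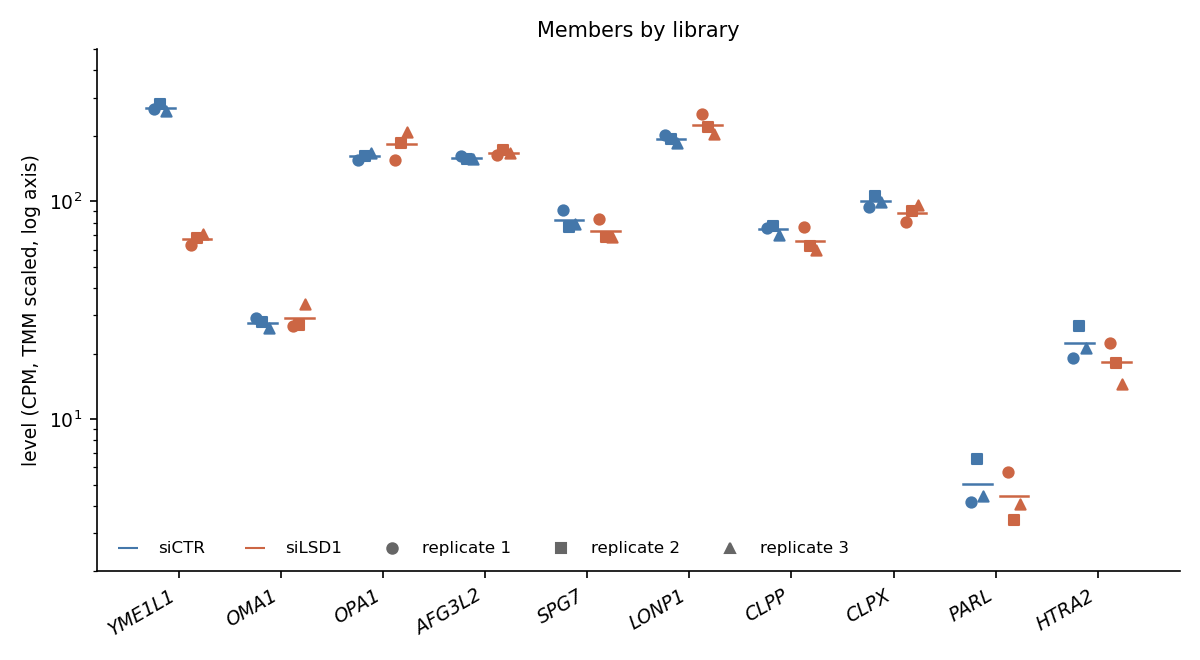
Level of each member in each library, in CPM on a log axis, with siCTR in blue and siLSD1 in orange, replicates as symbols and group means as lines. The siLSD1 libraries lie at 63.4 to 70.6 CPM for YME1L1, below 261 to 281 CPM in siCTR, whereas the groups of the other members lie side by side.

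OMA1, the stress-activated partner of YME1L1 in OPA1 cleavage, was at 29.3, 27.8 and 26.2 CPM in siCTR and at 26.8, 27.1 and 33.7 CPM in siLSD1. The groups overlapped, and siLSD1 replicate 3 was the highest of the 6 libraries. OMA1 had a log2 fold change of 0.07 (SE 0.13, 95% interval −0.22 to 0.37, adjusted p = 0.838 from edgeR), and without siLSD1 replicate 3 it was −0.04.

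OPA1, the common substrate, was at 155, 161 and 167 CPM in siCTR and at 155, 185 and 209 CPM in siLSD1. The lowest siLSD1 library was level with the lowest control, and siLSD1 replicates 2 and 3 lay above every control. OPA1 thus had a log2 fold change of 0.19 (SE 0.12, interval −0.08 to 0.45, adjusted p = 0.523 from edgeR). Leaving out siLSD1 replicate 3 gave 0.08 and leaving out replicate 1 gave 0.29, and neither passed the threshold.

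AFG3L2, the subunit of the m-AAA protease that can act alone, was at 162, 157 and 157 CPM in siCTR and at 163, 172 and 167 CPM in siLSD1. The groups did not overlap, but the gap between them was narrow. Its log2 fold change was 0.08 (SE 0.10, adjusted p = 0.774 from edgeR), with an interval of −0.14 to 0.29 that was the narrowest of the 9. SPG7 encodes paraplegin, the other m-AAA subunit, which needs AFG3L2 to form an active complex. It was at 91.0, 76.7 and 78.6 CPM in siCTR and at 82.9, 68.7 and 68.9 CPM in siLSD1. In both groups replicate 1 was the highest, and the groups overlapped. The log2 fold change of SPG7 was −0.16 (SE 0.12, interval −0.43 to 0.11, adjusted p = 0.593 from edgeR). It was −0.080 without siCTR replicate 1 and −0.25 without siLSD1 replicate 1. Corrected for the GC content and length of genes, it was −0.29 (adjusted p = 0.0873 from edgeR).

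LONP1, the matrix AAA+ protease that degrades oxidized and misfolded proteins, was at 201, 194 and 185 CPM in siCTR and at 251, 219 and 204 CPM in siLSD1. Every siLSD1 library lay above every control, with replicate 1 the farthest. For LONP1 the log2 fold change was 0.21 (SE 0.11, interval −0.03 to 0.46, adjusted p = 0.421 from edgeR). LONP1 was the member whose call depended on the fit. With the correction for GC content and length its log2 fold change was 0.32 (SE 0.08), and the adjusted p was 0.0337 from edgeR. In that fit 6.25% of all genes were called. LONP1 exons have a GC content of 62.1%, above that of 91.7% of the tested genes. Without siLSD1 replicate 1 the log2 fold change was 0.13 in the uncorrected fit.

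CLPP, the peptidase of the matrix ClpXP complex, was at 75.5, 77.3 and 70.3 CPM in siCTR and at 76.2, 62.2 and 59.7 CPM in siLSD1. CLPX, which unfolds proteins and feeds them to it, was at 94.4, 106 and 99.5 CPM in siCTR and at 80.8, 90.0 and 95.9 CPM in siLSD1. For CLPP the siLSD1 library that reached the controls was replicate 1, and for CLPX it was replicate 3. Both had a log2 fold change of −0.17 with an SE of 0.12 for CLPP and 0.11 for CLPX. Neither passed the threshold, with an adjusted p of 0.561 for CLPP and 0.527 for CLPX from edgeR. Leaving out siLSD1 replicate 1 moved CLPP to −0.29 and CLPX to −0.11, and leaving out siLSD1 replicate 3 moved CLPP to −0.10.

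PARL, the rhomboid protease of the inner membrane that cleaves PINK1 and PGAM5, had the fewest reads of the group. It had 54, 84 and 60 reads in siCTR and 77, 43 and 55 reads in siLSD1, and the groups overlapped throughout. Its log2 fold change was −0.19 with the widest interval of the 9 (−0.74 to 0.37, adjusted p = 0.780 from edgeR). It turned to 0.04 without siCTR replicate 2, and at this depth no direction could be given. HTRA2, a serine protease of the intermembrane space, had 247, 344 and 287 reads in siCTR and 299, 227 and 195 reads in siLSD1. Its siLSD1 replicate 1 lay within the controls. HTRA2 had a log2 fold change of −0.29 (SE 0.18, interval −0.68 to 0.10, adjusted p = 0.499 from edgeR). It was −0.14 without siCTR replicate 2 or without siLSD1 replicate 3, and −0.46 without siLSD1 replicate 1. In the annotation 47.7% of the exonic bases of PARL and 32.3% of those of HTRA2 lie in exons of other genes as well, compared with 11.7% or less for the other members. How reads on overlapping genes were counted is not given in the sources used here, and the part of this overlap in their values was not tested.

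**Figure D2:**
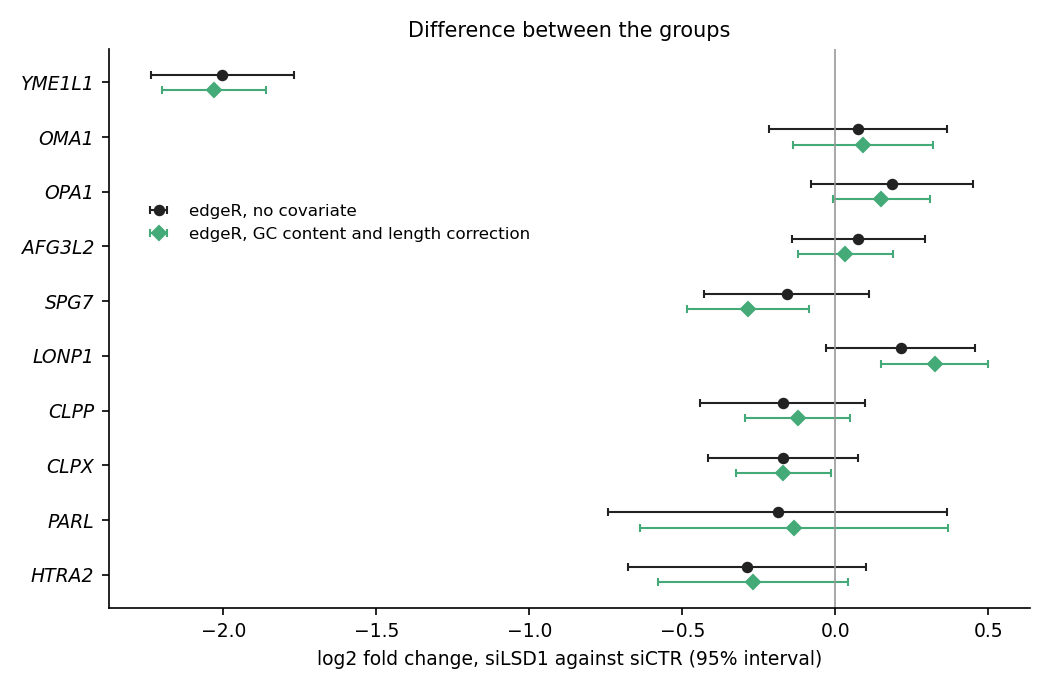
Log2 fold change of each member, siLSD1 against siCTR, with its 95% interval, from the fit without a covariate (black) and with a correction for GC content and length (green). The black intervals of the 9 members below YME1L1 all hold 0, and for LONP1, SPG7 and CLPX the green ones do not. The YME1L1 interval describes the gene chosen for its fall.

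Levels of different genes were compared per length, in FPKM, for which the authors divided counts by gene length and depth. In siCTR the order from high to low was CLPP (60.8 ± 2.77), LONP1 (55.0 ± 2.58), AFG3L2 (48.9 ± 1.44), YME1L1 (37.6 ± 1.14), OPA1 (22.4 ± 0.739), CLPX (21.3 ± 0.980), SPG7 (15.7 ± 1.66), OMA1 (14.3 ± 0.905), HTRA2 (9.42 ± 1.56) and PARL (3.01 ± 0.734), each as mean FPKM ± SD with n = 3. The neighbours CLPP and LONP1, OPA1 and CLPX, and SPG7 and OMA1 overlapped in FPKM between libraries, and the other neighbours did not. In siLSD1 YME1L1 averaged 9.40 ± 0.434 FPKM (SD, n = 3), and its place in this order went from 4 to 8. It then overlapped HTRA2, at 7.74 ± 1.71 FPKM (SD, n = 3), and lay below OMA1, at 15.1 ± 1.94 FPKM (SD, n = 3). The ratio of YME1L1 to OMA1 in FPKM was 2.46, 2.74 and 2.70 in siCTR and 0.639, 0.677 and 0.566 in siLSD1. The ratio of YME1L1 to its substrate OPA1 in FPKM was 1.57 to 1.76 in siCTR and 0.339 to 0.409 in siLSD1. The 2 proteases of the inner membrane that are built on YME1L1 and AFG3L2 also drew apart, with a YME1L1 to AFG3L2 ratio of 0.746 to 0.811 in siCTR and 0.176 to 0.191 in siLSD1. These ratios follow the fall by which YME1L1 was chosen. The ratios that do not involve it overlapped between the groups, at 2.88 to 3.31 in siCTR and 3.17 to 4.05 in siLSD1 for AFG3L2 to SPG7, and at 2.72 to 3.07 in siCTR and 2.39 to 3.63 in siLSD1 for CLPP to CLPX. This order depends on the gene lengths used. With CPM divided by the exon length of GENCODE in place of FPKM, LONP1 came first in siCTR, CLPP went from place 1 to 4, SPG7 from 7 to 9, and YME1L1 from place 2 in siCTR to 6 in siLSD1.

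**Figure D3:**
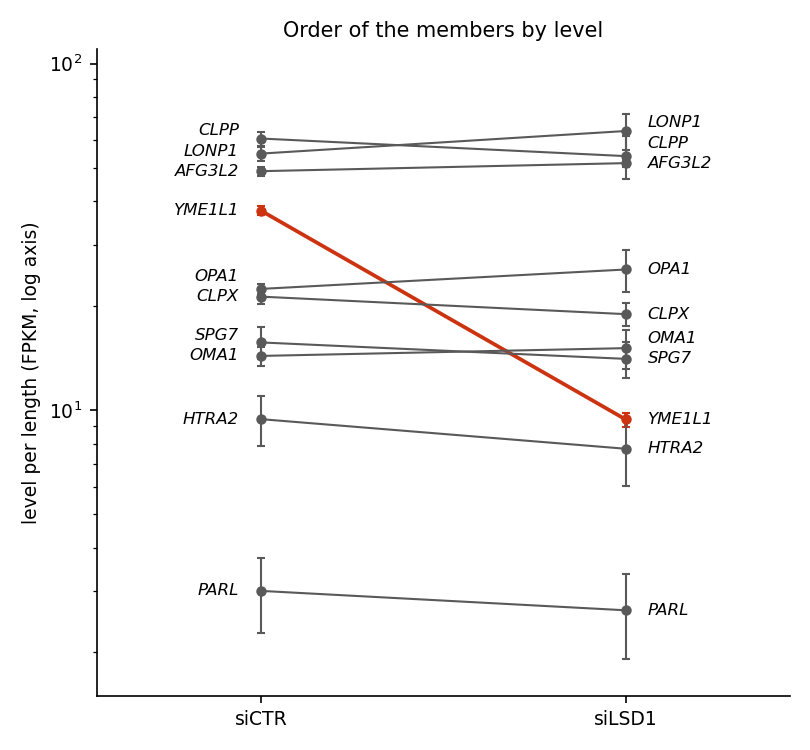
Mean level per length of the 10 members in siCTR and siLSD1, in FPKM on a log axis, with the SD of 3 libraries as bars. The red line is YME1L1, which goes from 37.6 to 9.40 FPKM and crosses OPA1, CLPX, SPG7 and OMA1.

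Related genes were read from 9 lists written from general knowledge of their roles, with 111 genes in all, of which 102 were tested. None of the 102 was called at an adjusted p under 0.05 by edgeR, against 1.44% of all tested genes. At an unadjusted p under 0.05 there were 20 of 102 (8 higher and 12 lower), or 19.6% against 14.0%. limma-voom called 0 (background 1.34%) and DESeq2 called 2, ROMO1 and GDF15 (background 2.73%). The median log2 fold change over the 102 genes was −0.05.

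The scaffolds and partners of the membrane proteases had no called gene among 8 tested, with a median log2 fold change of −0.17. The prohibitins PHB and PHB2, which form ring-shaped scaffolds around the m-AAA protease, had the smallest p-values. PHB2 was at 276, 325 and 282 CPM in siCTR and at 252, 237 and 241 CPM in siLSD1, without overlap (log2 fold change −0.27, adjusted p = 0.276 from edgeR). PHB had the same log2 fold change and an adjusted p of 0.316 from edgeR, and it was at −0.18 without siCTR replicate 2.

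Of the 10 tested genes on the list of YME1L1 and OMA1 substrates outside the group, 8 had lower and 2 had higher values in siLSD1. None was called. Over all 102 tested list genes 64 were lower and 38 higher. Of the 19 tested genes of mitochondrial mass and import, 14 were lower and 5 higher. ROMO1, a small inner membrane protein, was at 75.8, 67.8 and 46.8 CPM in siCTR and at 48.2, 40.8 and 38.1 CPM in siLSD1. The lowest control was siCTR replicate 3, which lay within the siLSD1 range. Its log2 fold change was −0.58 (SE 0.17, adjusted p = 0.127 from edgeR). DESeq2 gave an adjusted p of 0.0413. The correction for GC content and length left −0.36 (adjusted p = 0.122 from edgeR). TRIAP1 is the partner of PRELID1, a listed substrate, and with it carries phosphatidic acid across the intermembrane space. TRIAP1 went from 45.4 ± 9.68 to 33.4 ± 3.17 CPM (SD, n = 3, log2 fold change −0.44, adjusted p = 0.211 from edgeR), and was at −0.25 without siCTR replicate 2. Of the 6 tested PARL substrates none had an unadjusted p under 0.05, a level at which 14.0% of all genes passed. The smallest p-values belonged to TTC19, a complex III factor (log2 fold change −0.23), and to the phosphatase PGAM5 (−0.20, or −0.098 without siLSD1 replicate 3).

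Among 10 tested peptidases outside the group, the catalytic subunits of the inner membrane peptidase had opposite signs, and neither was called without a replicate block. IMMP2L went from 6.54 ± 0.757 to 9.56 ± 1.38 CPM in siLSD1 (SD, n = 3, log2 fold change 0.55, adjusted p = 0.192 from edgeR). IMMP1L went from 21.1 ± 4.85 to 15.5 ± 2.43 CPM (SD, n = 3, log2 fold change −0.45, adjusted p = 0.279 from edgeR), and its difference was −0.25 without siCTR replicate 2. Of 20 tested genes of fusion, fission and cristae organization, none was called. MFN1, the outer membrane fusion GTPase, was at 74.2, 82.1 and 81.9 CPM in siCTR and at 86.0, 100 and 106 CPM in siLSD1 (log2 fold change 0.29, adjusted p = 0.279 from edgeR). With the correction for GC content and length it passed the threshold (adjusted p = 0.0337 from edgeR). MICOS13, listed in the table as C19orf70 and part of the complex that holds cristae junctions, went from 40.5 ± 7.98 to 30.6 ± 4.84 CPM (SD, n = 3, log2 fold change −0.40, adjusted p = 0.283 from edgeR), with −0.24 when siCTR replicate 2 was left out.

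The integrated stress response is the route by which OMA1 signals to the cytosol, through DELE1 and the kinase EIF2AK1 (HRI) to ATF4. Of the 14 tested genes on this list, which includes DELE1 and EIF2AK1 themselves, none was called. Of the 14, 11 were higher and 3 lower in siLSD1, and the median log2 fold change was 0.19. At an unadjusted p under 0.05 there were 7 of 14 (5 higher, 2 lower), where 14.0% of all tested genes passed. TRIB3, an ATF4 target, had 802, 830 and 758 reads in siCTR and 1275, 1090 and 935 reads in siLSD1 (log2 fold change 0.46, SE 0.13, adjusted p = 0.127 from edgeR). GDF15, a secreted stress factor, lay on the other side, at 17.2, 25.8 and 15.5 CPM in siCTR and 14.2, 11.1 and 10.2 CPM in siLSD1 (log2 fold change −0.72, SE 0.20, adjusted p = 0.122 from edgeR). Without siCTR replicate 2, the highest control, GDF15 was at −0.46 on the log2 scale. ATF4 itself was at 211 ± 26.1 CPM in siCTR and EIF2AK1 at 222 ± 16.8 CPM, and in siLSD1 they were at 262 ± 8.10 and 280 ± 21.7 CPM (SD, n = 3). The genes of this list thus did not share 1 direction. With the correction for GC content and length, 5 of the 14 passed the threshold, namely TRIB3, ATF4, CHAC1 and EIF2AK1 with higher values and GDF15 with lower values, where 6.25% of all genes were called.

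The remaining lists held no called gene. Among 9 tested chaperones the smallest p-values belonged to ATF5, a transcription factor of the mitochondrial unfolded protein response (log2 fold change −0.49), and to the import motor factor GRPEL2 (0.22), with an adjusted p of 0.240 and 0.412 from edgeR. Over the 19 tested genes of mitochondrial mass and import the median was −0.12 on the log2 scale, and TFAM, which packages mitochondrial DNA, was at −0.27 and the outer membrane channel VDAC1 at −0.24. Of 13 tested mitophagy genes, the receptor BCL2L13 was at 68.6, 61.8 and 62.4 CPM in siCTR and at 80.0, 85.1 and 88.5 CPM in siLSD1. It had the smallest p of the 102 genes (log2 fold change 0.40, SE 0.11, adjusted p = 0.116 from edgeR). With the correction for GC content and length BCL2L13 passed the threshold (0.35, adjusted p = 0.0207 from edgeR). The second gene by p in this list was again PHB2.

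**Figure D4:**
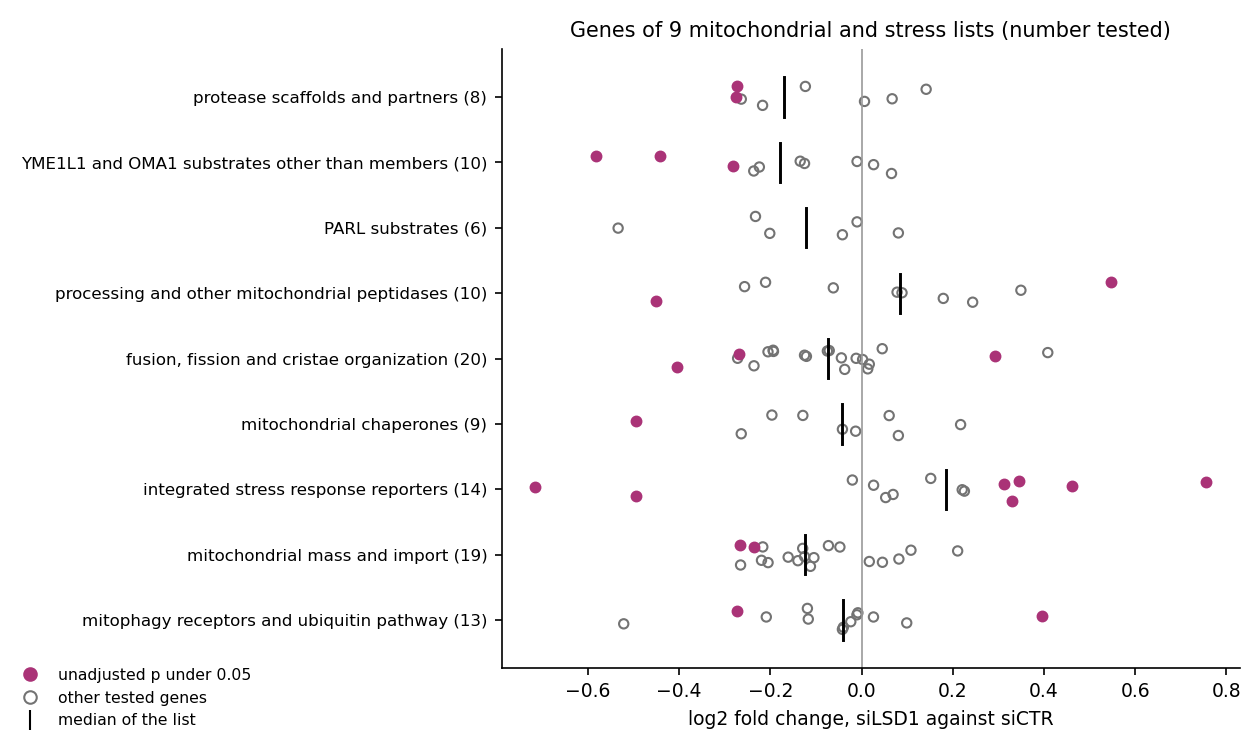
Log2 fold change, siLSD1 against siCTR, of each tested gene of the 9 lists, with the number tested in brackets, filled points for an unadjusted p under 0.05 and black ticks for list medians. The medians lie between −0.18 (substrates of YME1L1 and OMA1) and 0.19 (integrated stress response reporters).

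Genes beside YME1L1 on chromosome 10 were not called. MASTL, a mitotic kinase gene read in the opposite direction, overlaps the start of YME1L1 by 443 bases. It was at 71.3, 86.8 and 78.5 CPM in siCTR and at 76.0, 81.0 and 97.8 CPM in siLSD1 (log2 fold change 0.11, adjusted p = 0.749 from edgeR). ANKRD26, the nearest tested gene on the other side at a distance of 9616 bases, differed by 0.04 on the log2 scale (adjusted p = 0.940 from edgeR). Neither sign was stable, since without siLSD1 replicate 3 the values were −0.01 for MASTL and −0.14 for ANKRD26. Over the nearest 2 tested genes on each side of all 10 members, 0 of 40 were called by edgeR, DESeq2 or limma-voom (1.44%, 2.73% and 1.34% of all genes). An unadjusted p under 0.05 in edgeR was found for 2 of the 40, against 14.0% of all genes.

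The genes whose log-CPM followed that of YME1L1 most closely over the 6 libraries were KDM1A (Pearson r 0.999), ST3GAL5 (0.996), CRABP2 (0.993), EVI5 (0.992) and RABIF (0.989), out of 11565 genes that averaged 1 CPM or more. These values describe the step between the 2 groups, on which YME1L1 was chosen, and carry no test. The size of the step differed, at −2.44 on the log2 scale for KDM1A, between −0.92 and −0.86 for ST3GAL5, CRABP2 and EVI5, and −0.31 for RABIF.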

How the data were processed

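RNA-seq libraries of U2OS cells transfected with control siRNA (siCTR, n = 3) or LSD1 siRNA (siLSD1, n = 3) for 48 h were grouped by their labels. STAR was used for the alignment. The authors deposited raw counts of reads on each gene, and FPKM values, in which counts are divided by gene length and library depth. The genome build, the annotation, the counter and the strandedness are not given in the sources used here. A second set of deposited counts, from tables of library pairs, served as an alternative. The authors' fold changes and p-values in these files were not used.

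Counts were analysed in R 4.3.3 with edgeR 4.0.16 (filterByExpr at a count of 10, TMM, quasi-likelihood test without covariates), and p-values were adjusted by Benjamini-Hochberg over all 11844 genes tested, with a threshold of 0.05. CPM values are TMM-scaled, and 2 was the prior count for their logarithm. The procedure was tested on simulated counts. Alternatives were DESeq2 1.42.0, limma-voom (limma 3.58.1), other scalings and filters, a replicate block, lowess offsets (span 0.3) for GC content and exon length, the second counts and leaving out each library. Python 3.11.15 with numpy 2.4.6 and pandas 2.3.3 was used for the rest. Of 15585 genes, 15352 were matched to GENCODE release 44, and coordinates come from it. Depth limits the precision of PARL most, with 43 to 84 reads per library.

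Members and lists were chosen with earlier results of these data known. The named genes are KDM1A, the 10 members, the called genes of each list or else the 2 with the smallest p, the 5 genes most correlated with YME1L1, and its nearest tested neighbours. Markers, and list genes called under another fit, were named after their values were seen.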

Additional observations from a re-analysis of the deposited data

How the results depend on the processing

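The log2 fold change of YME1L1 stayed between −2.04 and −1.96 under all 16 alternatives. The count of 0 of 9 partners past the threshold held under all of them except the correction for GC content and length, which gave 1 (LONP1), and this correction with the replicate block, which also gave 1 (LONP1). The count of 0 genes past the threshold on the 9 lists became 2 with DESeq2 and 2 without a filter on low counts (ROMO1 and GDF15 in each), 7 with the correction for GC content and length (ATF4, BCL2L13, CHAC1, EIF2AK1, GDF15, MFN1, TRIB3), 8 with the replicate block (BCL2L13, C19orf70, CHAC1, GDF15, IMMP1L, ROMO1, TRIAP1, TRIB3) and 10 with both (those 7 with IMMP1L, PHB and TRIAP1), and it was 0 to 1 when each library was left out in turn. The 1 was ROMO1 without siCTR replicate 3 (log2 fold change −0.76, adjusted p = 0.0463 from edgeR) and TRIB3 without siLSD1 replicate 3 (0.58, adjusted p = 0.0412 from edgeR). Calls among all genes went from 171 to 323 with DESeq2, 290 without a filter, 735 with the GC and length correction, 897 with the replicate block and 1063 with both, and to 58 to 136 with 1 library left out. Same-numbered libraries had correlated deviations in 2 of 3 pairs (r = 0.33, 0.07 and 0.31), and every library correlated best with its own number. The second set of deposited counts also pairs libraries of the same number. The main fit treated the libraries as unpaired, and the count of 0 genes on the lists depends on that choice. Of the 102 tested list genes, 15 changed sign with the GC and length correction, each from a log2 difference of at most 0.089 in size, so counts by sign hold for the uncorrected fit. Among the members, the nearest tested neighbour of YME1L1 on either side and the list genes named by rule, signs turned for OMA1, PARL, MASTL and ANKRD26. With 1 library left out, OMA1 ranged from −0.040 to 0.13, PARL from −0.42 to 0.041, MASTL from −0.0052 to 0.18 and ANKRD26 from −0.14 to 0.21, and ANKRD26 was −0.035 with the GC and length correction and −0.044 with the block as well. The causes of these changes were not tested. Groups of 3 libraries limit what can be shown: single partners had an SE of 0.10 to 0.26 on the log2 scale.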

Other observations

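Some mitochondrial genes that most cells express were listed with very few reads, and they were chosen after their values were seen. UQCRC2, a core subunit of complex III, had 3 to 13 reads per library, whereas its partner subunit UQCRC1 had 4567 to 6572. SMDT1, the EMRE subunit of the calcium uniporter that the m-AAA protease processes, had at most 1 read. DIABLO, a PARL substrate, had 14 to 33 reads and SQSTM1, an autophagy receptor, had 6 to 17. In the second counting UQCRC2 had 4 to 16 reads and SQSTM1 7 to 17. The annotation places 0% of the exonic bases of UQCRC2 in exons of other genes, 22.4% of those of SQSTM1 and 32.3% of those of DIABLO. How the counts of these genes were made is not given in the sources used here, and levels of low genes such as PARL (43 to 84 reads) carry the same limit.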
